A study of Homo sapiens with 12 samples.

Results

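The NR4A family comprises 3 genes, NR4A1 (Nur77), NR4A2 (Nurr1) and NR4A3 (NOR1), and all 3 were found by their gene symbol among the 20771 genes of the count table. They were followed through 12 RNA-sequencing libraries of the conditional knockout lines EW8-RRM1-KO and, derived from TC71 cells, TC71-RRM1-KO. Both are human Ewing sarcoma cell lines in which the endogenous RRM1 gene, encoding the catalytic subunit of ribonucleotide reductase, had been knocked out with CRISPR/Cas9 and growth was kept up by a doxycycline-inducible, codon-optimized RRM1 transgene that Cas9 cannot cut. Each line derived from a single cell, and the knockout and the transgene were present in all 4 groups. The 0 h groups were grown with doxycycline and the 48 h groups had been without it for 48 h, with 3 libraries in each group.

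NR4A proteins are nuclear receptors that lack a known classical ligand, because bulky side chains fill the pocket in which other receptors bind theirs, and their activity is set mainly by how much of each protein is made. The genes are immediate early genes, transcribed within minutes of growth factor, cyclic AMP, calcium or stress signals, through CREB, MEF2 and SRF sites among others. The proteins bind the NBRE sequence as monomers and palindromic elements as dimers. NR4A1 and NR4A2, but not NR4A3, pair with retinoid X receptors, and NR4A3 is the partner of EWSR1 in the gene fusion of extraskeletal myxoid chondrosarcoma, a sarcoma distinct from Ewing sarcoma.

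In GENCODE release 44 on GRCh38, the same assembly as hg38, NR4A1 (ENSG00000123358) lies at chr12:52022832-52059507 on the plus strand, NR4A2 (ENSG00000153234) at chr2:156324437-156342348 on the minus strand and NR4A3 (ENSG00000119508) at chr9:99821855-99866891 on the plus strand. Their canonical transcripts have 7, 8 and 8 exons. The stretch of 150 coding bases that the 3 canonical transcripts share best encodes part of the DNA-binding zinc fingers, and it is shown because it is where reads could most easily be assigned to the wrong family member. Capitals mark the 111 bases (74.0%) that are the same in all 3.
NR4A1: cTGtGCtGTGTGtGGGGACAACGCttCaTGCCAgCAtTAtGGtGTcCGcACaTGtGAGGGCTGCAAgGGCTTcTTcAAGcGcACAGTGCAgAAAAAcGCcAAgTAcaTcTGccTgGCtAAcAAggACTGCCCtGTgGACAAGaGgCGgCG
NR4A2: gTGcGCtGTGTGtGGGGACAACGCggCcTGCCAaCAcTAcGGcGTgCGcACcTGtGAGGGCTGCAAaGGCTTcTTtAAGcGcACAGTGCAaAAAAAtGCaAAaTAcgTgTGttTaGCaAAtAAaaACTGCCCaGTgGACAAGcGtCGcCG
NR4A3: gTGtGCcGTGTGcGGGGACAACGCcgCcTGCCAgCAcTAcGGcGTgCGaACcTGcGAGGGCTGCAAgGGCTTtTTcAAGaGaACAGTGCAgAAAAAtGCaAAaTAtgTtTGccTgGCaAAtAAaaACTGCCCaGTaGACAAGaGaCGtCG

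The stretch crosses from exon 2 into exon 3 in NR4A1 (chr12:52055126-52056100) and from exon 3 into exon 4 in NR4A2 (chr2:156328463-156329401) and NR4A3 (chr9:99828915-99832759). The longest run shared without a mismatch anywhere in the transcripts was 20 bases for NR4A1 and NR4A2 (gctgtgtgtggggacaacgc), 17 bases for NR4A1 and NR4A3 (gagggctgcaagggctt) and 20 bases for NR4A2 and NR4A3 (gcaaataaaaactgcccagt), and no pair shared a 100-base word, the length of a read. Overlapping genes were annotated for 2 members, the antisense RNA NR4A1AS at NR4A1 and the antisense RNA STX17-DT at NR4A3. Neither was analysed here, and because the strand setting of the counting is not given in the sources used here, reads from them could not be told apart from reads of NR4A1 and NR4A3.

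The libraries held 18468485 to 35698991 counts each. Replicates of a group differed by more than counting noise (chi-square per gene 2.02 to 9.28, the highest in a pair with TC71 48 h replicate 3), and the labels do not say that they were separate cultures, so the p-values measure the spread between these libraries, which may be technical. All 7 Ewing sarcoma markers examined (CD99, NKX2-2, NR0B1, STEAP1, PRKCB, LIPI and FLI1) were measured, with a summed level of 1032 to 1220 CPM (counts relative to the scaled library size). Of 8 markers of other cell types only PTPRC and EPCAM were in the table, with a summed level of 0.115 to 1.64 CPM. RRM1 itself rose from 9.52 to 70.2 CPM in EW8 (log2 fold change 2.88 ± 0.07, SE) and from 16.2 to 25.4 CPM in TC71 (0.65 ± 0.07). Whether these reads came from the edited locus or from the codon-optimized transgene was not tested, so they do not check the loss of the transgene.

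NR4A1 was the most abundant member in every library and was upregulated in both lines. The EW8 libraries held 135, 123 and 204 reads of it with doxycycline (5.91, 7.05 and 6.22 CPM) and 778, 867 and 829 reads without (41.4, 43.5 and 40.6 CPM). The TC71 libraries held 137, 102 and 133 reads with doxycycline (5.1, 5.0 and 5.5 CPM) and 652, 653 and 910 reads without (24.9, 24.4 and 28.1 CPM). Every 48 h library lay far above every 0 h library of its line, and the replicates lay close together. The rise was 6.59-fold in EW8 (log2 2.72, 95% interval 2.56 to 2.89, adjusted p = 5.91e-25) and 4.96-fold in TC71 (log2 2.31, 2.14 to 2.48, adjusted p = 5.37e-21) by edgeR's quasi-likelihood test with Benjamini-Hochberg adjustment over the 16515 genes tested. In these bulk libraries, more RNA per cell and more cells that express the gene cannot be told apart.

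NR4A3 was the least abundant member at 0 h and rose in both lines, more so in EW8. Its counts were 12, 6 and 14 in the EW8 0 h libraries (0.526, 0.344 and 0.427 CPM) and 59, 90 and 103 in those of 48 h (3.14, 4.51 and 5.04 CPM). Its TC71 counts were 33, 25 and 28 with doxycycline (1.23, 1.23 and 1.16 CPM) and 97, 115 and 136 without (3.7, 4.3 and 4.2 CPM). The groups did not overlap within either line, but at a mean of 10.7 counts, counting error alone gives the EW8 0 h libraries a coefficient of variation of 30.6%. The rise was 9.61-fold in EW8 (log2 3.26, 95% interval 2.79 to 3.73, adjusted p = 1.51e-14) and 3.37-fold in TC71 (log2 1.75, 1.39 to 2.12, adjusted p = 9.91e-10).

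NR4A2 moved least and did not reach a fold of 2 in either line. The EW8 counts were 45, 24 and 54 with doxycycline (1.97, 1.37 and 1.65 CPM) and 36, 46 and 59 without (1.91, 2.31 and 2.89 CPM), and the lowest 48 h library lay below the highest 0 h library. The TC71 counts were 77, 54 and 59 with doxycycline (2.87, 2.65 and 2.44 CPM) and 125, 119 and 161 without (4.77, 4.44 and 4.98 CPM), without overlap. The fold changes were 1.41 in EW8 (log2 0.50, 95% interval 0.11 to 0.89, adjusted p = 0.0199) and 1.78 in TC71 (log2 0.83, 0.54 to 1.13, adjusted p = 1.59e-05). The EW8 value rests on single libraries: its adjusted p was 0.180 without 48 h replicate 3, 0.098 without 0 h replicate 2 and 0.0836 without 0 h replicate 3.

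**Figure D1:**
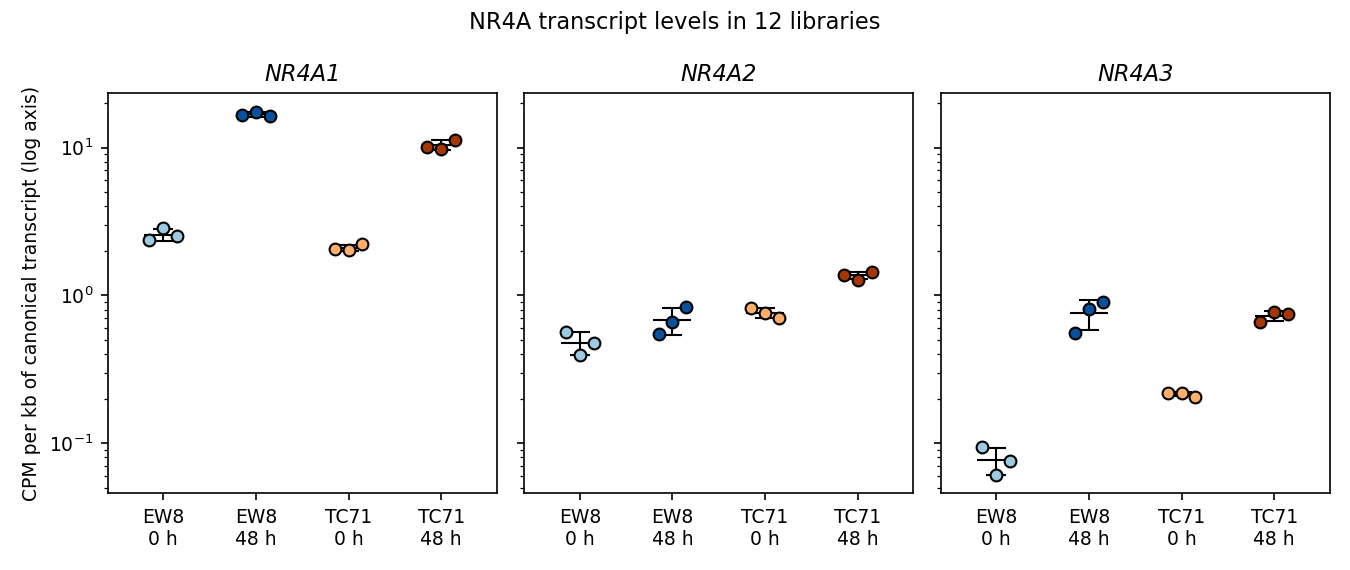
NR4A1, NR4A2 and NR4A3 levels in CPM per kilobase of canonical transcript (log axis) in the 4 groups; points are single libraries, horizontal marks the mean and bars the SD of 3 libraries. NR4A1 sits above the other members in every group, and NR4A2 is the only member whose 0 h and 48 h points overlap, in EW8.

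With the call set at a change past 2-fold together with an adjusted p under 0.05, 2 of 3 members, NR4A1 and NR4A3, were called higher at 48 h in each line. The same rule called 13.9% of all genes tested higher in EW8 and 3.26% in TC71, so the EW8 line had many more upregulated genes against which to read the family. Libraries without overlap are less selective, since 37.9% of genes in EW8 and 25.9% in TC71 had every 48 h library above every 0 h library. Ranked by fold change among the 16515 genes, NR4A1 was number 376 in EW8 and number 85 in TC71, although its fold was larger in EW8. NR4A3 was number 227 in EW8 and number 176 in TC71. NR4A2 was number 4473 in EW8 and number 851 in TC71.

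**Figure D2:**
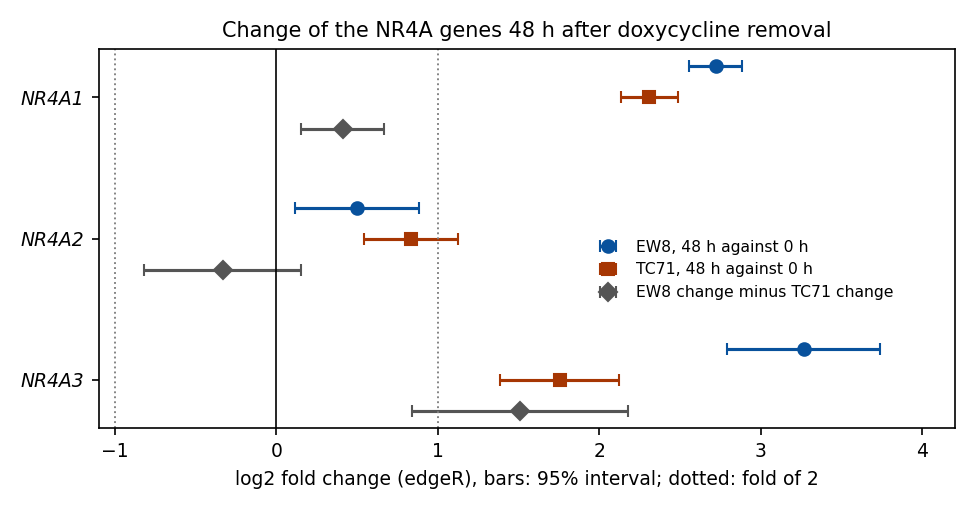
Log2 fold changes of the 3 genes 48 h after doxycycline removal in EW8 (circles) and TC71 (squares) and the difference between the lines (diamonds), with 95% intervals; dotted lines mark a fold of 2. NR4A1 and NR4A3 lie beyond a fold of 2 in both lines (2.72 and 3.26 in EW8, 2.31 and 1.75 in TC71) and NR4A2 below it (0.50 and 0.83).

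The lines differed in how much NR4A3 rose. The change in EW8 minus the change in TC71 was 1.51 on the log2 scale (95% interval 0.84 to 2.18, adjusted p = 2.62e-04), so that 1 of 3 members passed the same call for a larger change in EW8, beside 7.28% of all genes. At 0 h EW8 had 0.432 ± 0.091 CPM (SD, n = 3) and TC71 1.20 ± 0.04 CPM. NR4A3 was 2.73-fold lower in EW8 at 0 h (log2 -1.45, adjusted p = 5.63e-05), the 1 member called lower in EW8 at that time, beside 11.9% of genes. At 48 h its levels were 4.23 ± 0.98 CPM in EW8 and 4.07 ± 0.32 CPM in TC71, a log2 difference of 0.06 with an interval of -0.23 to 0.36 (adjusted p = 0.718). Tested against a fold of 2 rather than against 0, the adjusted p was 0.547 for the difference in response and 0.183 for the difference at 0 h.

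NR4A1 also changed more in EW8, by a log2 difference of 0.41 (95% interval 0.15 to 0.67, adjusted p = 0.00748), which is below a fold of 2. NR4A1 was 1.22-fold higher in EW8 at 0 h (adjusted p = 0.0213) and 1.62-fold higher at 48 h (adjusted p = 1.57e-11). The first of these was 0.15 on the log2 scale with adjusted p = 0.226 when libraries were scaled by their totals alone. Its adjusted p was 0.072 without EW8 0 h replicate 2, 0.0623 without TC71 0 h replicate 1 and 0.0695 without TC71 0 h replicate 2. For NR4A2 the change in EW8 minus that in TC71 was -0.33 (-0.82 to 0.16, adjusted p = 0.264), and it ran from -0.50 without EW8 48 h replicate 3 to -0.20 without EW8 48 h replicate 1. NR4A2 was lower in EW8 at both times, by 0.66 on the log2 scale at 0 h (adjusted p = 0.00163) and by 0.99 at 48 h (adjusted p = 6.05e-07), the latter just inside a fold of 2 and just outside it (-1.05) with totals alone. None of the 3 members was called between the lines at 48 h by the main edgeR fit or by DESeq2, although 2 had an unadjusted p below 0.05. Of all genes, 10.5% and 11.0% were called higher and lower in EW8. The other edgeR fits in which NR4A2 passed a fold of 2 are given in the closing section.

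The 4 groups therefore fell in a different order for each member. NR4A1 rose from TC71 0 h through EW8 0 h and TC71 48 h to EW8 48 h with no overlap between neighbors. NR4A2 rose from EW8 0 h through EW8 48 h and TC71 0 h to TC71 48 h, with overlap between EW8 0 h and EW8 48 h (1.66 ± 0.30 and 2.37 ± 0.49 CPM) and between EW8 48 h and TC71 0 h (2.65 ± 0.21 CPM). NR4A3 rose from EW8 0 h through TC71 0 h to the pair of 48 h groups, which overlapped.

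The members were also compared with each other within each library, as the log2 ratio of their levels, by an exact two-sided permutation test in which the 0 h and 48 h labels were exchanged within each line (400 arrangements, smallest possible p = 0.005, 3 pairs). NR4A1 rose more than NR4A2 by 2.21 in EW8 and 1.47 in TC71, on average by 1.84 (permutation p = 0.005, the smallest the design gives, adjusted p = 0.0075). NR4A2 rose less than NR4A3, with a difference of -2.72 in EW8 and -0.90 in TC71, on average -1.81 (permutation p = 0.005, adjusted p = 0.0075). NR4A1 and NR4A3 differed by -0.51 in EW8 and 0.57 in TC71, which gave a mean of 0.03 (permutation p = 0.95). The difference had opposite signs in the lines and was not tested in each line alone. The log2 ratio of NR4A1 to NR4A3 was 3.44 to 4.28 at 0 h and 3.0 to 3.71 at 48 h in EW8, where the groups overlapped, and 2.01 to 2.23 and 2.5 to 2.74 in TC71, where they did not.

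Per kilobase of canonical transcript, on which levels of different genes can be set side by side, the summed level of the family went from 3.13 ± 0.14 to 18.3 ± 0.6 CPM per kilobase in EW8 and from 3.07 ± 0.07 to 12.5 ± 0.9 in TC71 (SD, n = 3). NR4A1 supplied 82.1% ± 3.9 of the sum in EW8 at 0 h and 92.1% ± 1.7 at 48 h. In TC71 its share was 68.1% ± 2.4 at 0 h and 83.2% ± 0.6 at 48 h. The share of NR4A2 went from 15.4% ± 3.3 to 3.74% ± 0.78 of the sum in EW8 and from 24.9% ± 2.1 to 10.9% ± 0.4 in TC71, while its own level was not lower at 48 h. NR4A3 supplied 2.48% ± 0.61 and 4.13% ± 0.92 in EW8 and 7.0% ± 0.4 and 5.8% ± 0.5 in TC71. Within EW8 the order of NR4A2 and NR4A3 thus passed from a clear lead of NR4A2 (0.479 ± 0.086 against 0.0771 ± 0.0162 CPM per kilobase) to levels that overlapped (0.682 ± 0.141 against 0.755 ± 0.175). The shares depend on the length used: with the length of all annotated exons, a choice made after the data were seen, NR4A1 supplied 65% and 82% in EW8 and 46% and 66% in TC71. On that length NR4A2 supplied 30% and 8.2% in EW8 and 42% and 22% in TC71, and NR4A3 5.1% and 9.6% in EW8 and 12% at both times in TC71.

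**Figure D3:**
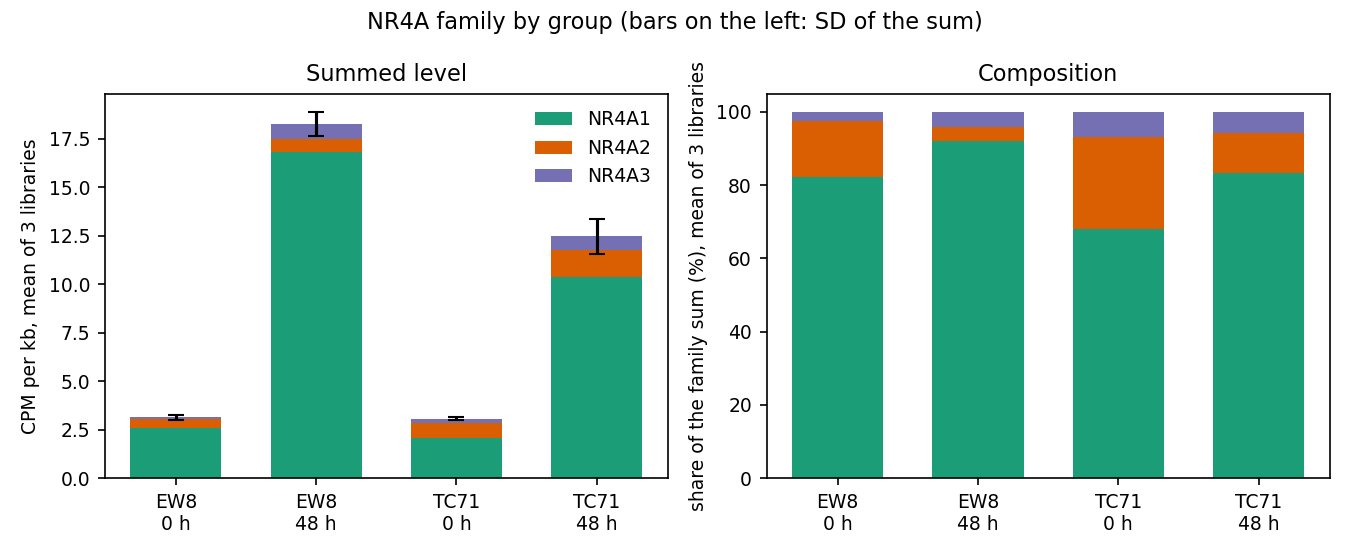
Summed NR4A level in CPM per kilobase (left, bars show the SD of the sum over 3 libraries) and the share of each member in percent (right) in the 4 groups. The sum rises from about the same level in both lines at 0 h to 18.3 in EW8 and 12.5 in TC71, and NR4A1 makes up 68.1% to 92.1% of it.

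Sequence upstream of start sites came from a RefSeq table of 35116 windows on GRCh38.p14, each of 300 bases (250 before and 50 after a start site). The windows matched 2 of the 3 members, NR4A1 and NR4A3; NR4A2 was unmatched. Printed for NR4A3 are the 220 bases before its earliest annotated start, chr9:99821635-99821854 on the plus strand, because 3 copies of the core of the cyclic AMP response element, TGACG or its reverse complement CGTCA, lie in it and are set in capitals.
NR4A3: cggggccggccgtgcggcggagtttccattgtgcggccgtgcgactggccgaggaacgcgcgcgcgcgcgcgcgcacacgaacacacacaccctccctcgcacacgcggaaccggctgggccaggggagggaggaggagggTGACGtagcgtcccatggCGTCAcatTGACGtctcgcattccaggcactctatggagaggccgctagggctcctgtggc

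These copies begin 109, 91 and 83 bases before the canonical start site and the last of the 4, in the part not printed, begins 25 bases before it. On both strands, 24.6% of all windows hold at least 1 copy of TGACG and 0.313% hold 4 or more. The full element TGACGTCA, which contains TGACG on each strand, is in 1.85% of windows and in none of the 3 NR4A windows. The same holds for the AP-1 element TGACTCA (4.95% of windows) and for the NBRE, AAAGGTCA (1.22%). The NR4A1 windows belong to alternative starts 28.6 and 13.7 kb upstream of the canonical one and hold no TGACG. A match is a stretch of letters and was not tested as a binding site.

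NR4A1 and NR4A3 had the largest changes among the nuclear receptors measured. Of 45 other human nuclear receptor genes looked up, 34 were in the table and 31 passed the filter on low counts. With the NR4A genes this gave 34 receptors, among which NR4A3 and NR4A1 had the largest and second largest log2 fold change in EW8 and NR4A1 and NR4A3 the largest and second largest in TC71, ahead of ESR1 (1.81 ± 0.38, SE) and NR2E1 (0.84 ± 0.12). NR4A2 was number 13 in EW8 and number 4 in TC71. In level per kilobase NR4A1 moved from number 19 to number 4 in EW8 and from number 21 to number 8 in TC71, whereas NR4A3 went from number 31 to number 27 and from number 30 to number 29.

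Among the 31 other receptors 6 were called higher and 2 lower in EW8, beside 13.9% and 3.35% of all genes, with a median log2 fold change of -0.01 beside 0.03 for all genes. The receptors called higher with the largest changes were the estrogen receptor ESR1 (4, 7 and 8 counts at 0 h, 21, 16 and 18 at 48 h), the vitamin D receptor VDR (log2 fold change 1.59 ± 0.09), the oxysterol receptor NR1H3 (1.20 ± 0.14) and the orphan receptor RORB (1.14 ± 0.15). Those called lower were the thyroid hormone receptor THRA (-1.11 ± 0.08) and the orphan receptor NR6A1 (-1.06 ± 0.10). With scaling by library totals alone neither of these was called (-0.98 and -0.93). In TC71 none of the 31 was called by edgeR or DESeq2, although 16 had an unadjusted p below 0.05, beside 3.26% of all genes called higher and 0.854% lower, and the median was 0.03 beside -0.00 for all genes.

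**Figure D4:**
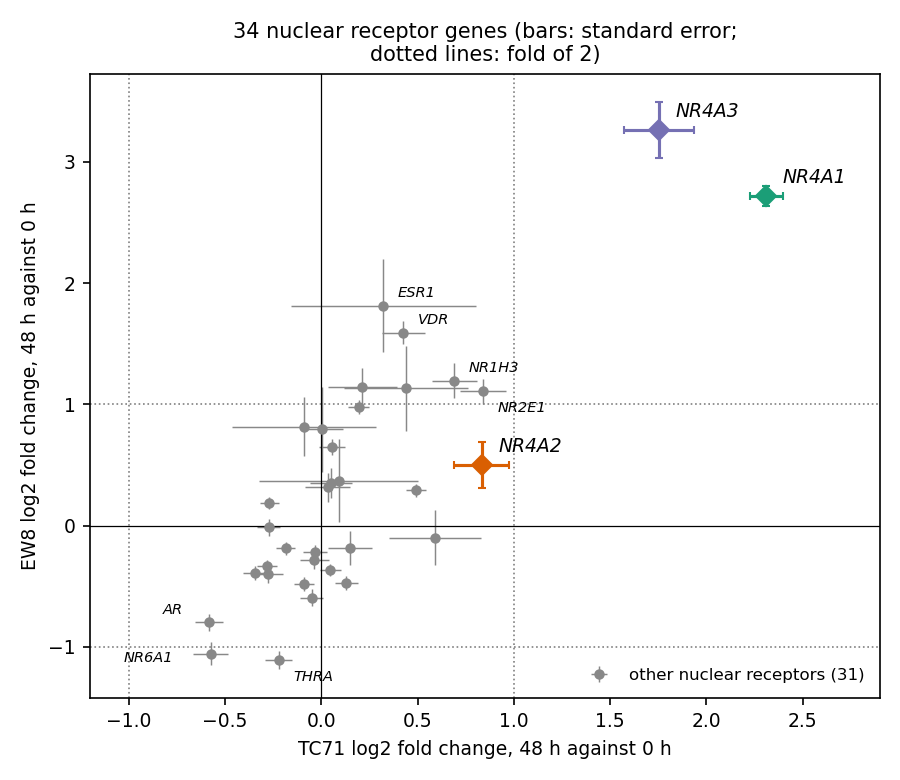
Log2 fold change at 48 h in EW8 (vertical axis) against TC71 (horizontal axis) for 34 nuclear receptor genes, with standard errors; diamonds are the NR4A genes, circles the 31 other receptors and dotted lines a fold of 2. NR4A1 and NR4A3 lie apart at the upper right, and NR4A2 lies among the others.

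The retinoid X receptors, with which NR4A1 and NR4A2 form heterodimers, were abundant at both times. RXRA rose by less than a fold of 2, from 61.9 to 75.9 CPM in EW8 (log2 0.29 ± 0.05, adjusted p = 1.12e-05, edgeR) and from 70.9 to 99.6 CPM in TC71 (0.49 ± 0.05, adjusted p = 1.18e-09). RXRB went from 78.3 to 89.0 CPM in EW8 (0.19 ± 0.05, adjusted p = 7.70e-04) and from 57.4 to 47.6 CPM in TC71 (-0.27 ± 0.05, adjusted p = 3.48e-05). RXRG was not in the table. Of the 13 protein partners of the family looked up, which also include BCL2, the nuclear exporter XPO1 and the corepressor subunits RCOR1 and KDM1A, 10 were tested and none was called in either line by edgeR or DESeq2, beside 13.9% of all genes called higher and 3.35% lower in EW8 and 3.26% and 0.854% in TC71. By unadjusted p below 0.05, 9 of the 10 differed in EW8 and 8 in TC71. Their log2 fold changes ran from -0.80 (XPO1) to 0.31 (RCOR1) in EW8 and from -0.32 (XPO1) to 0.49 (RXRA) in TC71, with medians of -0.25 and -0.08.

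Of the 21 genes listed as regulators of NR4A transcription, 20 were tested and 3 were called higher in EW8, beside 13.9% of all genes, with a median log2 fold change of 0.37. These were CREM, which encodes activating and repressing partners of CREB (2.75 ± 0.06), the class IIa histone deacetylase HDAC5, which represses MEF2 factors (1.28 ± 0.06), and the CREB coactivator CRTC1 (1.13 ± 0.10). In TC71 1 of the 20, CREM, was called (1.18 ± 0.06), beside 3.26% of all genes, and the median was 0.18. Tested against a fold of 2 rather than against 0, CREM in TC71 and CRTC1 in EW8 lost their call. CREM counts went from 328, 223 and 452 to 1634, 1928 and 1903 in EW8, and from 480, 393 and 424 to 1037, 1130 and 1366 in TC71, without overlap in either line. No other regulator, among them CREB1, SRF and the MEF2 factors other than MEF2B, which was not in the table, passed a fold of 2. None was called lower. By adjusted p alone, 13 of the 20 were higher and 1 lower in EW8, and 12 higher and 2 lower in TC71. SIK1 has a near-identical annotated copy, so its values are uncertain.

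Of 16 early response genes, often transcribed with the NR4A genes in other cells, 12 were tested. CREM and SIK1 are in this list as well as in that of the regulators. In EW8 8 were called higher and 4 were not called, and in TC71 6 were called higher and 6 were not, beside 13.9% and 3.26% of all genes called higher. None was called lower, and the median log2 fold changes were 2.2 and 1.0. Among those not called, and named after their values were seen, were SIK1 in EW8 (-0.06) and NFIL3 in TC71 (-0.15). PTGS2, encoding the prostaglandin-synthesizing cyclooxygenase-2, went from 45, 32 and 75 counts to 738, 825 and 824 in EW8 (log2 fold change 4.28 ± 0.11) and from 11, 9 and 11 counts to 77, 112 and 134 in TC71 (3.11 ± 0.21). The antiproliferative gene BTG2 changed by 3.43 ± 0.09 in EW8 and 1.92 ± 0.08 in TC71. The MAP kinase phosphatase gene DUSP1 changed by 2.75 ± 0.07 and 1.48 ± 0.08, and RGS2, a regulator of G protein signaling, by 2.35 ± 0.06 and 1.31 ± 0.08. In this list NR4A1 would take the place between RGS2 and DUSP1 in EW8, and in TC71 only PTGS2 rose by more than NR4A1. The change was larger in EW8 by more than a fold of 2 for 8 of the 12, beside 7.28% of all genes, as it was for NR4A3.

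Genes described as targets of NR4A proteins in other tissues gave a mixed picture. Of 28 looked up, 14 were tested, of which 5 were called higher and 1 lower in EW8, beside 13.9% and 3.35% of all genes (median 0.61). In TC71 1 was called higher and 1 lower, beside 3.26% and 0.854% of all genes (median 0.09, or 0.06 with genes of 3 or fewer counts set to that floor). PDCD1, which encodes the PD-1 receptor of T cells, was called in both lines. It had 2 counts in each EW8 0 h library and 40, 60 and 57 at 48 h, a ratio of 32.3 with an exact 95% counting interval of 14.5 to 89.4. In TC71 it went from 12, 9 and 7 counts to 71, 75 and 114 (log2 fold change 2.93 ± 0.24). The other targets called higher in EW8 were the osteopontin gene SPP1 (2.09 ± 0.37), the cholesterol transporter gene STAR (1.72 ± 0.49), the regulatory T-cell factor gene FOXP3 (1.67 ± 0.20) and the receptor tyrosine kinase gene RET (1.02 ± 0.11). RET fell short of a fold of 2 without 0 h replicate 1 (0.99), 0 h replicate 3 (0.93) or 48 h replicate 1 (0.94) of EW8 and with each line fitted alone (0.99), and with the fold of 2 inside the test it was not called. SPP1 had 5 to 9 counts and STAR 1 to 7 counts in the EW8 0 h libraries. The glucose transporter gene SLC2A4 was lower (-1.52 ± 0.33). The target called lower in TC71 was RET, with 2, 1 and 1 counts at 0 h and none at 48 h, which is too few to give a fold.

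Among the 12 tested genes nearest to the members, 2 on each side, 2 were called higher in EW8, TAMALIN and KRT80, and 1 in TC71, beside 13.9% and 3.26% of all genes. TAMALIN, which encodes a scaffold protein, ends 6.94 kb before the NR4A1 locus and changed by 1.68 ± 0.12 in EW8 (74, 60 and 112 counts at 0 h, 223, 210 and 204 at 48 h) and 0.71 ± 0.10 in TC71. The keratin gene KRT80, 109 kb beyond it, had no counts in any EW8 0 h library and 28, 20 and 25 at 48 h, at least 9.41-fold higher if each 0 h library is set to 3 counts. KRT80 was the gene called in TC71, on 1, 0 and 0 counts with doxycycline and 3, 3 and 4 without. ATG101, 9.74 kb beyond NR4A1 and needed for autophagy, changed by 0.91 ± 0.07 and 0.54 ± 0.08. ACVR1B, an activin receptor gene 25.8 kb away on the other side, had values of 0.08 ± 0.05 and -0.06 ± 0.05 and passed no test (edgeR adjusted p = 0.123 and 0.339). The neighbors of NR4A3 are SEC61B (591 kb away), ALG2 (600 kb), STX17 (39.8 kb) and ERP44 (112 kb). Their log2 fold changes lay between -0.41 and 0.23 in EW8 and between -0.14 and -0.04 in TC71. The neighbors of NR4A2 are KCNJ3 (1466 kb away), ARL6IP6 (3562 kb), GPD2 (92.9 kb) and ACVR1 (1394 kb), and none was called in either line.

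The genes with the profile most like each member were found by the root-mean-square distance between log2 CPM values, each gene centered on its own mean over the 12 libraries. Nearest to NR4A1 were the protease gene ADAMTS4 (distance 0.19), the G protein-coupled receptor gene GPR3 (0.25), the AP-1 subunit gene JUNB (0.27), TNFAIP3, which encodes the A20 inhibitor of NF-kappaB signaling (0.29), and the pseudogene NMRAL2P (0.30), beside a median distance of 1.34 over all genes. ADAMTS4 went from 126, 110 and 222 counts to 818, 838 and 873 in EW8, and from 161, 94 and 118 to 505, 492 and 729 in TC71. Nearest to NR4A3 were GPR137C (0.23), DNASE2B (0.29), ADGRG7 (0.30), FAM124B (0.36) and KLF5, a Krüppel-like transcription factor gene (0.36), beside a median of 1.41. Their log2 differences between EW8 and TC71 at 0 h were -1.43 to -0.84, beside -1.45 for NR4A3. This likeness was favored by choosing them on the same libraries. In the EW8 0 h libraries DNASE2B had only 4, 3 and 5 counts and FAM124B 5, 3 and 5. Nearest to NR4A2 were CYP24A1, which encodes the enzyme that degrades vitamin D (0.20), KLHL22 (0.21), the semaphorin coreceptor gene NRP1 (0.21), the actin-severing gelsolin gene GSN (0.22) and MAP3K6 (0.22), beside a median of 0.68. No member was among the nearest of another: NR4A3 stood at number 294 from NR4A1, and NR4A2 at number 3980. When the 4 group means were used in place of the 12 libraries, 1 of the 5 genes was shared for each member.

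**Figure D5:**
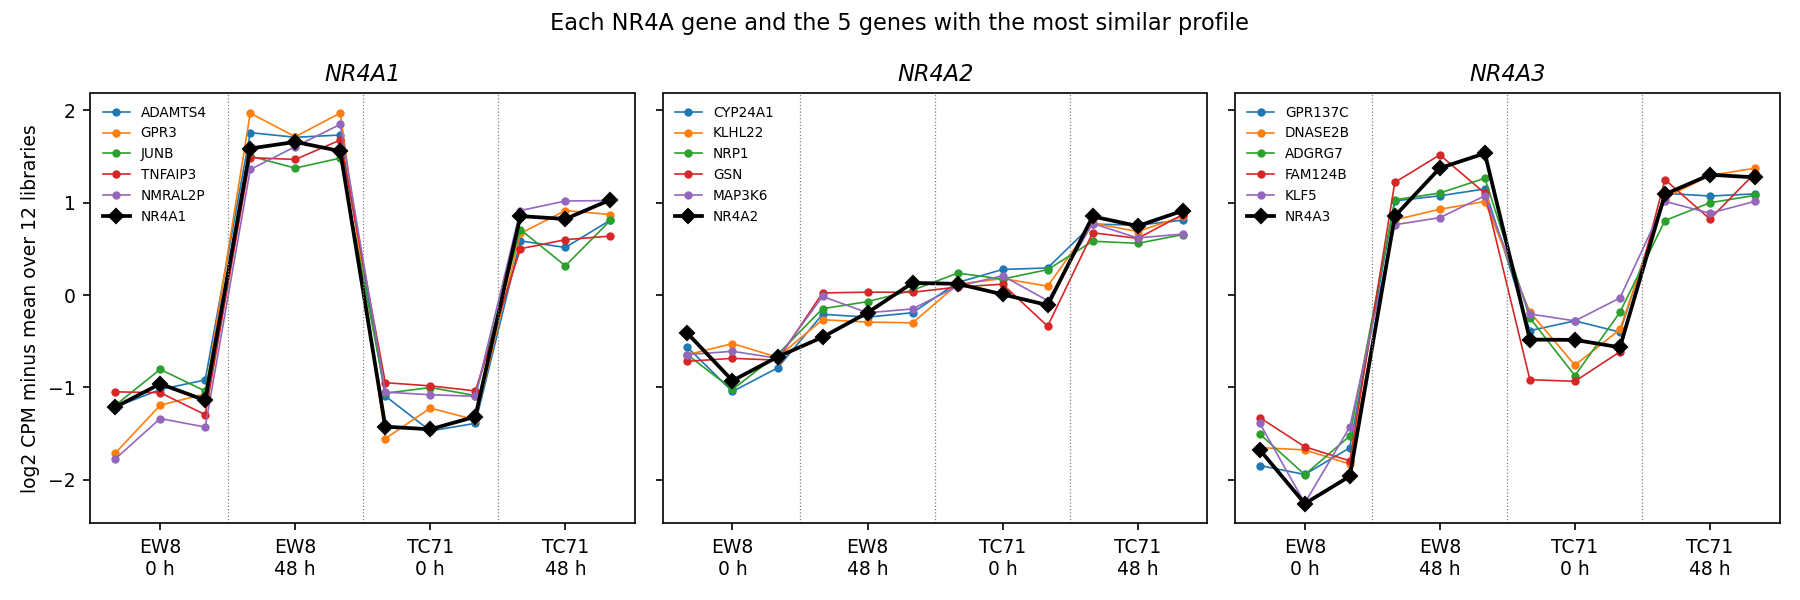
Log2 CPM centered on the mean over 12 libraries for each NR4A gene (black) and the 5 genes with the smallest root-mean-square distance to it; dotted lines part the 4 groups of 3 libraries. NR4A1 and its nearest genes peak in EW8 at 48 h, NR4A2 and its nearest genes are highest in TC71 at 48 h, and NR4A3 and its nearest genes are lowest in EW8 at 0 h.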

How the data were processed

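Both knockout lines were sequenced from poly(A)-selected, stranded libraries as paired 100-base reads. According to the submitters' processing notes and the study's methods, the authors checked reads with FastQC, aligned them with STAR to hg38 and deposited raw counts per gene; the counting tool, annotation release and strand setting are not given in the sources used here. The table holds 20771 genes, none with fewer than 21 counts over all libraries. The authors tested with DESeq2. Here edgeR 4.0.16 (R 4.3.3) fitted all 12 libraries by group with TMM scaling, after a filter (filterByExpr, minimum count 10) that left 16515 genes, including all 3 members. The call required a change past 2-fold together with an adjusted p under 0.05. CPM values use TMM-scaled library sizes. Depth was 18468485 to 35698991 counts per library, and the biological coefficient of variation was 4.17%. Ratios of members used a prior of 0.5 counts. The scripts were tested on simulated data. Lengths and neighbors came from GENCODE 44. Named from each list were up to 4 called genes per line and direction with the largest change, the retinoid X receptors, the 2 nearest tested genes on each side of each member and the 5 nearest profiles. The members and lists were chosen with earlier results of these data known. Alternatives were DESeq2 1.42.0, other scalings and filters, separate fits per line, a replicate block, a fold threshold inside the test and leaving out each library.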

Additional observations from a re-analysis of the deposited data

Results flagged for a closer look

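The change at 48 h was examined for 52 genes by edgeR's test of the difference between the lines. They are the members, RRM1 and the genes given by the naming rule. The change differed by more than a fold of 2 for NR4A3 and 13 others, each with the higher value in EW8. In that direction 7.28% of all genes were called. List genes were named for large changes, mostly in EW8, and others for likeness to a member. A larger change in EW8 was thus favored in advance, and the count cannot be read against that share. The change in EW8 minus the change in TC71 was 1.51 for NR4A3 on the log2 scale. Among early response genes it was 1.57 for CREM, 1.51 for BTG2, 1.27 for DUSP1, 1.17 for PTGS2 and 1.04 for RGS2. For the vitamin D receptor VDR it was 1.17, for FOXP3 it was 1.55 and for RRM1 it was 2.23. Among the genes with profiles nearest to NR4A1 it was 1.13 for TNFAIP3 and 1.07 for NMRAL2P, and among those nearest to NR4A3 it was 1.42 for GPR137C, 1.41 for ADGRG7 and 1.35 for KLF5, which were chosen for that likeness. PDCD1 and RET also passed the test, but each had 3 or fewer counts in every library of a group, so no value is given for them. The EW8 0 h libraries of NR4A3 held 6 to 14 counts. With 3 libraries in each group no single library was tested as standing apart.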

How the results depend on the processing

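Over 22 results (the 15 contrasts of the members, the 3 comparisons between members and the 4 list counts) and 412 alternatives, 382 kept the direction and the side of the threshold or, for counts, stayed within 1.5 times, and 13 results did so throughout. The 0 h libraries of a line and its 48 h libraries share replicate numbers that do not pair them (correlation of same-numbered deviations -0.138 to -0.0147, and no 0 h library correlated best with its own number). A fit with the replicate number as a block gave 2.72 for NR4A1 in EW8 and 2.31 in TC71, 21 list genes higher and 3 lower in EW8 and 7 higher and 1 lower in TC71, and changed no call.

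With the fold of 2 inside the test, NR4A3 was no longer called for the difference in response (1.51) or at 0 h (-1.45), and 13 list genes were higher and 0 lower in EW8 and 0 lower in TC71. Of the named list genes, CRTC1, ESR1, NR1H3, RORB, STAR, RET, THRA, NR6A1 and SLC2A4 lost their call in EW8 in that test and CREM lost its call in TC71. NR4A2 passed a fold of 2 between the lines at 48 h with totals alone (-1.05), with at least 10 counts in every library (-1.03) and without any 1 of EW8 0 h replicates 1, 2 or 3, EW8 48 h replicate 3, TC71 0 h replicate 2 or TC71 48 h replicate 2 (-1.17 to -0.86 over all libraries left out). The NR4A3 difference at 48 h ran from -0.090 (without EW8 48 h replicate 3; it also changed sign without TC71 48 h replicate 1) to 0.23 and the NR4A1 minus NR4A3 response from -0.073 to 0.14 (below 0 without EW8 0 h replicate 1 or EW8 48 h replicate 1) when single libraries were left out, so neither has a settled sign. In TC71 the same was true of ESR1 (-0.047 to 0.71, below 0 without 0 h replicate 1) and FOXP3 (-0.064 to 0.23, below 0 without 0 h replicate 3). Of 83 list genes tested, 21 were higher in EW8 (13 with at least 10 counts in every library, 47 by adjusted p alone) and 3 lower (1 with totals alone, 23 by adjusted p alone), beside 13.9% and 3.35% of all genes. In TC71 7 were higher (32 by adjusted p alone) and 1 lower, which was RET (17 by adjusted p alone, 0 with DESeq2, with at least 10 counts in every library or with the lines fitted apart, 0 to 1 without single libraries, lost without 0 h replicate 1 or any 48 h replicate), beside 3.26% and 0.854% of all genes. NR4A3 has fewer than 10 counts in 1 library and so gives no value under that stricter filter. Apart from the construction of these alternatives, the causes were not tested. Among the members, depth limits NR4A3 in EW8 at 0 h most.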
